A study of Mus musculus with 36 samples.

Results

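The comparison described here is that of day 6 with day 0 of adipogenic differentiation, the adipocyte against the pre-adipocyte, and its members were all libraries labelled with either day: 12 at day 6 and 12 at day 0, of 36 libraries in all (the other 12 were from day 2). The cells were mouse brown pre-adipocytes in which both copies of *Rxra*, the gene of retinoid X receptor alpha, had been disrupted with Cas9. A pair of single-cell clones, 48 and 66, was used, and in each a retrovirus supplied either wild-type RXRα (RxraWT) or a form with alanine in place of the serine that insulin signalling phosphorylates (RxraSA). Each clone and genotype gave 3 libraries per day, so that every library, controls included, came from *Rxra*-/- cells with virally expressed *Rxra* and none from cells with their own gene intact. Day 0 cells had been grown to confluence with insulin and triiodothyronine. Day 6 cells had then received dexamethasone, isobutylmethylxanthine and indomethacin for 2 days, followed by insulin and triiodothyronine alone, so that day 0 and day 6 differ in time and in past exposure to the inducing agents. Each genotype in each clone was 1 cell line, and each clone was sequenced as 1 library pool, so clone and pool cannot be told apart.

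An adipocyte stores triglyceride in a droplet coated by perilipins, takes up glucose and fatty acids when insulin acts, and releases fatty acids when catecholamines act. A brown adipocyte also holds many mitochondria and burns fat for heat. Adipogenesis is driven by PPARγ, which binds DNA as a heterodimer with an RXR, and by C/EBP factors, while Wnt, TGF-beta and the actin-dependent regulators SRF and YAP are known to hold a precursor in its fibroblast-like state. The precursor is a flat, proliferating cell with actin stress fibres and a collagen-rich matrix.

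Total counts per library lay between 11351078 and 24349263 at day 0 and between 15683839 and 24198110 at day 6. The library with the lowest total, clone 48 RxraSA day 0 replicate 1, also had 4.56% of its counts in *Lars2* and a set of ribosomal RNA genes, against at most 0.51% in the others, and leaving it out changed no count over a gene list by more than 1.5-fold. Mitochondrial chromosome genes took 1.11 to 3.78% of the counts at day 0 and 1.96 to 9.09% at day 6. The targeted gene, *Rxra*, was read at 92.5, 170.0 and 233 CPM at day 0 and 182, 240.0 and 347 CPM at day 6, and these reads combine the viral copy with transcripts of the disrupted gene. The deposited design calls the 3 libraries of a cell line and day technical replicates, whereas the methods describe independent cultures, so the p-values may measure only the spread between these libraries.

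Defining markers were compared with the labels first. Of the 7 adipocyte markers, all were higher in each of the 12 day 6 libraries than in any day 0 library. Among pre-adipocyte and fibroblast markers, *Pdgfra*, the PDGF receptor of adipose precursors, was present at 34.1, 88.1 and 176 CPM at day 0 and 12.6, 20.0 and 30.5 CPM at day 6, whereas *Dlk1* (3 counts over all day 0 libraries) and *Thy1* (16 counts) were near 0 at day 0. Of the brown adipocyte markers, *Cox8b*, *Cox7a1*, *Cidea* and *Ebf2* rose. *Ebf2*, a factor of the brown lineage, was read at 16.9, 28.4 and 32.4 CPM at day 0 and 40.8, 51.1 and 62.7 CPM at day 6 in clone 48 but at 0.143, 0.252 and 0.422 CPM at day 0 and 0.789, 0.910 and 1.40 CPM at day 6 in clone 66, so that it was near 0 in that clone on both days. The uncoupling protein gene *Ucp1*, which defines the heat-producing cell, had 1 count over the 12 day 0 libraries and 40 over the 12 day 6 libraries, a ratio of 37.9 (95% counting interval 6.42 to 1532). *Zic1* and *Lhx8*, markers of the brown lineage, had 0 counts on both days, and *Dio2*, which activates thyroid hormone, had 24 counts at day 6. The day 6 cells carried the general adipocyte markers at high levels and the brown adipocyte ones from near 0 to moderate levels.

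Most genes passed the test of no change, and fewer changed by more than 2-fold. Of 16723 genes tested, 5505 (32.9%) were higher and 5919 (35.4%) were lower at day 6, with the genotypes averaged and the clone as a covariate (edgeR quasi-likelihood test, Benjamini-Hochberg adjusted p under 0.05), and over all genes the median change was a log2 of -0.034. In a stricter test that asks for a change beyond 2-fold, 1659 genes (9.92%) were higher and 1622 (9.7%) lower. For 2048 genes (12.2%) every day 6 library lay above every day 0 library, and for 1836 (11%) every one lay below. The split depended on the scaling: 48.2% of the genes called were higher at day 6 with TMM scaling and 34.9% with library size alone, which moved the median of all genes by -0.19. Changes below are relative to the TMM scale. Counts of list members below stand against the 32.9% higher and 35.4% lower of all genes, and a count near these shares is no result about the members. A gene near 0 on the other days passed the filter only through the day on which it was high, so its direction was fixed by the filter. RNA was measured in whole cultures, so a smaller number of cells of one kind and less RNA per cell cannot be told apart. Below, 3 values in a row are the lowest, median and highest of the 12 libraries of a day in CPM after TMM scaling. CPM is the count of a gene scaled to a library of 1000000 counts. The words "rose" and "fell" are used of genes that passed the test, and a value in brackets after a gene is its log2 fold change. The value after ± is the absolute log2 fold change, or difference of such changes, divided by the square root of its F statistic. It approximates a standard error and is too small for genes with almost no counts on a day.

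**Figure D1:**
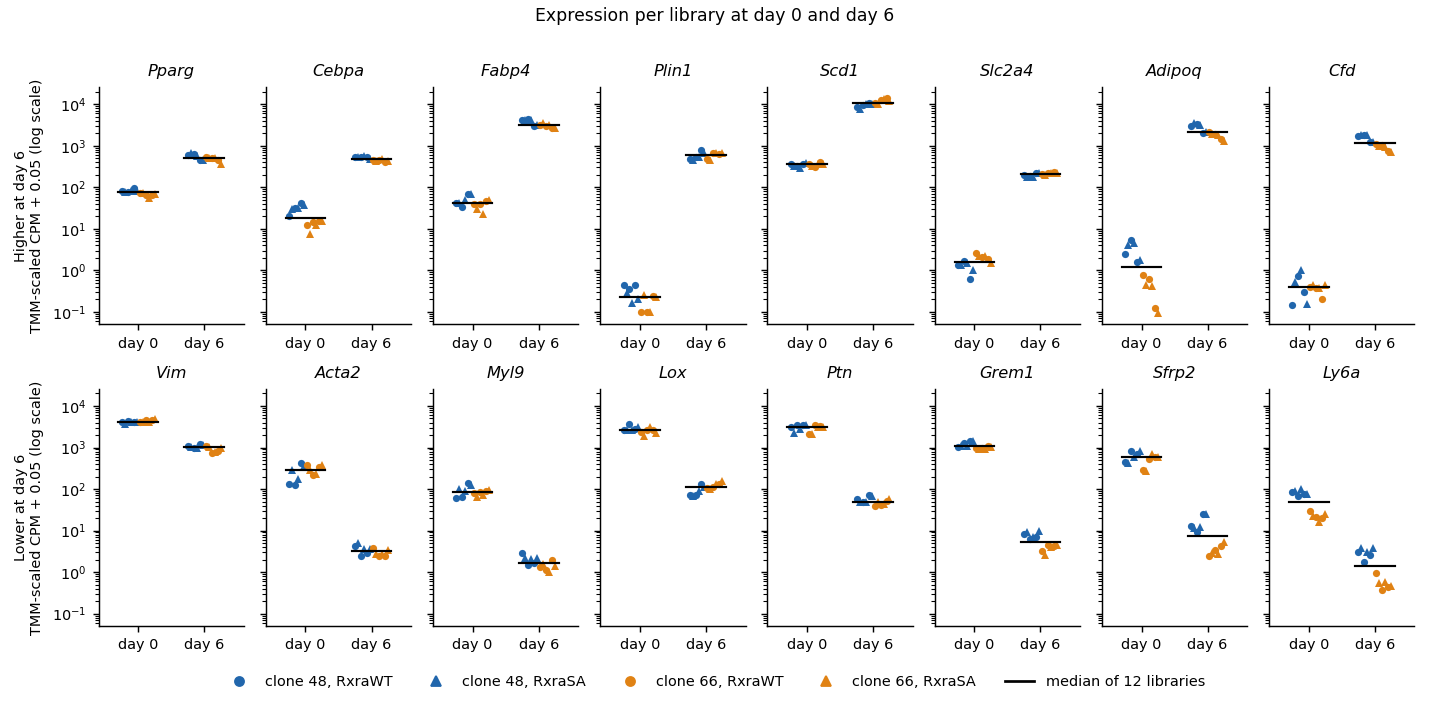
Normalized expression of 16 genes in each of the 24 libraries at day 0 and day 6. The vertical axis is TMM-scaled CPM plus 0.05 on a log scale, colours are the clones, symbols the genotypes, and bars the median of the 12 libraries of a day. For Pparg, Cebpa, Fabp4, Plin1, Scd1, Slc2a4, Adipoq and Cfd all day 6 points sit above all day 0 points, and for Vim, Acta2, Myl9, Lox, Ptn, Grem1, Sfrp2 and Ly6a all sit below.

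The adipogenic transcription factors rose as a group. Of 16 measured members of a list of 20, 15 rose, 0 fell and the median log2 fold change was 1.62, and 9 rose by more than 2-fold. *Pparg*, the master regulator of the fat cell, was read at 55.3, 75.4 and 95.6 CPM at day 0 and 356, 514 and 658 CPM at day 6 (log2 fold change 2.80 ± 0.08, edgeR adjusted p = 4.9e-25). *Cebpa*, the C/EBP that keeps the differentiated state, was read at 7.64, 18.1 and 41.3 CPM at day 0 and 399, 489 and 571 CPM at day 6 (log2 fold change 4.53 ± 0.17, edgeR adjusted p = 1.2e-22). The ranges of the days did not overlap for either gene. *Klf15*, a Krüppel-like factor of glucose and amino acid metabolism, went from 0, 0.122 and 0.407 CPM to 85.5, 119 and 133 CPM (log2 fold change 9.44 ± 0.23, edgeR adjusted p = 6.3e-28), with the gene close to 0 in every day 0 library. *Srebf1*, which drives the genes of fatty acid synthesis, rose from 55.4, 65.8 and 108 CPM to 339, 546 and 872 CPM (log2 fold change 2.92 ± 0.16, edgeR adjusted p = 1.0e-17). *Rxra* itself rose little, and its ranges overlapped (log2 fold change 0.62 ± 0.11, edgeR adjusted p = 8.0e-06). The factors that act at the start of adipogenesis did not share one course: *Cebpb* had a log2 fold change of 1.97 ± 0.13, while *Cebpd*, its early partner, was the 1 member that did not pass (log2 fold change -0.24 ± 0.13, edgeR adjusted p = 0.085). Side by side, mean levels at day 2 were 70.7 CPM for *Cebpb* and 53.6 CPM for *Cebpd*, against day 6 medians of 35.4 and 7.83 CPM.

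Genes of the lipid droplet were among the strongest rises, but not all its coat proteins rose. Of 13 measured members 9 rose and 3 fell, with a median of 1.44. *Plin1* (chr7:79720218-79732903, GRCm38), the perilipin that guards the droplet of mature adipocytes, was read at 0.0469, 0.182 and 0.407 CPM at day 0 and 449, 598 and 774 CPM at day 6 (log2 fold change 11.58 ± 0.20, edgeR adjusted p = 8.4e-32). *G0s2*, an inhibitor of adipose triglyceride lipase, was read at 0.268, 0.588 and 1.54 CPM at day 0 and 486, 659 and 768 CPM at day 6 (log2 fold change 9.93 ± 0.24, edgeR adjusted p = 5.5e-28). *Cidec*, which fuses droplets, rose by 8.47 ± 0.31 on the log2 scale, from 0.286, 1.45 and 4.47 CPM to 483, 608 and 674 CPM. For these genes the day 6 range began far above the end of the day 0 range. Other perilipins fell or rose by less. *Plin3*, which coats small nascent droplets, fell from 146, 184 and 279 CPM to 99.1, 120.0 and 136 CPM (log2 fold change -0.70 ± 0.09, edgeR adjusted p = 2.4e-08), with no overlap. *Plin4* had 693, 932 and 1275 CPM at day 0 and 387, 751 and 975 CPM at day 6 (log2 fold change -0.43 ± 0.11, edgeR adjusted p = 7.5e-04), with overlapping ranges, and *Plin2*, the droplet protein of most cell types, rose by 0.54 ± 0.13. *Hsd17b11* was the other member that fell (-0.61 ± 0.12).

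The machinery that breaks triglyceride down rose together with the machinery that makes it. In the lipolysis list 13 of 14 members rose and 0 fell, 12 of them by more than 2-fold, with a median of 3.73. The beta-3 adrenergic receptor gene *Adrb3*, through which noradrenaline starts lipolysis, was read at 0, 0.0192 and 0.162 CPM at day 0 and 29.5, 67.5 and 126 CPM at day 6 (log2 fold change 10.54 ± 0.27, edgeR adjusted p = 2.4e-27). *Lipe*, encoding hormone-sensitive lipase, was read at 17.5, 26.1 and 35.99 CPM at day 0 and 502, 746 and 1086 CPM at day 6 (log2 fold change 4.81 ± 0.14, edgeR adjusted p = 3.9e-25). *Mgll*, encoding the monoglyceride lipase of the last step, had 5 counts over all day 0 libraries and 56.0, 104 and 157 CPM at day 6 (log2 fold change 11.84 ± 0.22, edgeR adjusted p = 2.4e-31). No day 6 library overlapped a day 0 library for these 3 genes. *Adrb1*, the beta-1 receptor gene, rose by 1.00 on the log2 scale. *Prkar2b*, a regulatory subunit of protein kinase A, rose from 139, 183 and 224 CPM to 412, 544 and 720.3 CPM.

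Of 15 genes of triglyceride synthesis and glyceroneogenesis, 12 rose and 3 fell (median 2.26). *Gpd1*, which makes glycerol 3-phosphate from a glycolytic intermediate, was read at 1.45, 1.86 and 2.34 CPM at day 0 and 810.0, 1117 and 1288 CPM at day 6 (log2 fold change 9.13 ± 0.12, edgeR adjusted p = 6.1e-35). *Gpat3*, an acyltransferase of the first step, rose from 5.98, 8.20 and 10.6 CPM to 213, 332 and 439.6 CPM (5.25 ± 0.13), and *Gpam*, its mitochondrial relative, from 82.1, 110.0 and 159.8 CPM to 391, 533 and 751 CPM (2.26 ± 0.07). *Pck1*, whose enzyme supplies glycerol carbon from pyruvate, had 0 counts in every day 0 library and 4891 in total at day 6, at least 1543-fold higher against a floor of 3 counts over the day 0 group. The days were fully apart for each of these 4 genes. The 3 members that fell were *Lpin2* (-0.40), *Lpin3* (-0.52) and *Gk* (-0.40), the first a pair of phosphatidate phosphatases whose relative *Lpin1* rose by 3.56, and the last a glycerol kinase.

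The list of fatty acid synthesis accounted for 0.208, 0.310 and 0.484% of all counts at day 0 and 1.24, 1.87 and 2.42% at day 6. Its summed level was 1865, 2819.6 and 4519 CPM at day 0 and 12189, 18879 and 25689 CPM at day 6, and the desaturase genes *Scd1* and *Scd2* carried the bulk of it at day 6. Of 15 members 12 rose and 2 fell, with a median of 1.44. *Scd1*, the desaturase that makes oleate, was read at 288, 358 and 405 CPM at day 0 and 7886, 10442 and 14122 CPM at day 6 (log2 fold change 4.92 ± 0.19, edgeR adjusted p = 6.1e-22), and no library of one day reached the range of the other. Its relative *Scd2* was read at 309, 793 and 1933 CPM at day 0 and 2090.1, 4898 and 7800.0 CPM at day 6 (2.52 ± 0.28). *Thrsp*, a lipogenic cofactor that responds to thyroid hormone, was read at 0.129, 0.379 and 0.566 CPM at day 0 and 45.8, 66.5 and 100 CPM at day 6 (log2 fold change 7.67 ± 0.16, edgeR adjusted p = 2.8e-29). *Fasn*, encoding fatty acid synthase, spread widely, at 96.1, 153 and 364 CPM at day 0 and 203, 675 and 1805 CPM at day 6 (log2 fold change 2.08 ± 0.29, edgeR adjusted p = 7.3e-08), and its ranges overlapped. *Acly*, which makes the acetyl-CoA for this pathway, was the 1 member that did not pass (log2 fold change -0.041 ± 0.09, edgeR adjusted p = 0.69). The 2 that fell were elongases: *Elovl6* was read at 51.3, 116 and 211 CPM at day 0 and 11.03, 16.3 and 21.8 CPM at day 6 (log2 fold change -2.95 ± 0.12, edgeR adjusted p = 1.5e-21), and *Elovl1* fell by less (-0.77 ± 0.07).

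Fatty acid uptake, binding and activation showed 9 of 11 members higher and 2 lower (median 0.97), and took 0.102, 0.125 and 0.186% of all counts at day 0 and 0.942, 1.12 and 1.34% at day 6. *Cd36*, the fatty acid translocase, was read at 0.843, 1.70 and 3.00 CPM at day 0 and 558, 992 and 1508 CPM at day 6 (log2 fold change 9.17 ± 0.23, edgeR adjusted p = 1.5e-27). *Fabp4*, the adipocyte fatty acid-binding protein, was read at 22.8, 41.7 and 70.9 CPM at day 0 and 2665, 3142 and 4452 CPM at day 6 (log2 fold change 6.29 ± 0.16, edgeR adjusted p = 1.6e-27). *Lpl*, the lipase that frees fatty acids from lipoproteins, was already at 361, 595 and 1141 CPM at day 0 and reached 2152, 4537 and 5242 CPM (2.67 ± 0.18). All day 6 libraries lay above all day 0 libraries for the 3 genes. *Acsl5* (-0.56) and the transporter gene *Slc27a1* (-0.33) were the members that fell. In the list of caveolae, the membrane pits abundant in fat cells, 5 of 9 members rose and 2 fell. *Cav2* went from 113, 174 and 285 CPM to 389.9, 743 and 913 CPM (2.01 ± 0.15) and *Cav1* from 481, 696 and 739 CPM to 979.8, 1420.3 and 2077 CPM (1.12 ± 0.10), without overlap, while the ranges of *Cavin2*, a coat protein (1.74 ± 0.12), overlapped. *Pacsin2* (-0.50) and *Pacsin3* (-0.27) fell.

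The insulin pathway changed in composition. Of 18 members 14 rose and 4 fell (median 1.41). *Slc2a4*, the glucose transporter that insulin moves to the surface, was read at 0.559, 1.56 and 2.54 CPM at day 0 and 173, 215 and 232 CPM at day 6 (log2 fold change 7.004 ± 0.12, edgeR adjusted p = 8.4e-32), and *Trarg1*, a partner of its vesicles, at 0.172, 0.658 and 2.60 CPM at day 0 and 49.3, 78.3 and 91.4 CPM at day 6 (log2 fold change 6.58 ± 0.25, edgeR adjusted p = 2.2e-22). Both had every day 6 library far above the day 0 range. *Insr*, the insulin receptor gene, rose from 31.5, 40.9 and 52.7 CPM to 86.6, 142 and 189 CPM (log2 fold change 1.76 ± 0.13, edgeR adjusted p = 2.6e-14), whereas *Igf1r*, that of the related IGF-1 receptor, fell from 16.3, 21.2 and 33.2 CPM to 5.90, 9.45 and 14.0 CPM (log2 fold change -1.24 ± 0.15, edgeR adjusted p = 3.2e-09). Neither gene overlapped between days. The substrates *Irs1* (0.75 ± 0.27) and *Irs2* (1.32 ± 0.15) rose, and the kinase genes split, with *Akt2* higher by 0.75 ± 0.06 and *Akt1* lower (-0.50 ± 0.07). *Pik3ca* (-0.27) and *Tbc1d1* (-0.43) were the other members that fell.

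Secreted adipocyte proteins had the highest median of the 46 lists: 14 of 15 rose and 0 fell, 13 by more than 2-fold, with a median of 3.93 and 0.0298, 0.0391 and 0.0446% of all counts at day 0 and 0.348, 0.499 and 0.763% at day 6. *Adipoq*, encoding the hormone adiponectin, was read at 0.0431, 1.14 and 5.38 CPM at day 0 and 1294, 2103 and 3447 CPM at day 6 (log2 fold change 10.97 ± 0.45, edgeR adjusted p = 2.9e-21). *Cfd*, encoding adipsin, was read at 0.0986, 0.345 and 0.973 CPM at day 0 and 706, 1157 and 1832 CPM at day 6 (log2 fold change 11.83 ± 0.39, edgeR adjusted p = 6.3e-24). *Retn*, encoding resistin, was read at 0, 0.0525 and 0.153 CPM at day 0 and 166, 363 and 741 CPM at day 6 (log2 fold change 12.25 ± 0.25, edgeR adjusted p = 9.0e-30). No day 0 library came near the day 6 range of any of them. *Lep*, encoding leptin, had 1 count at day 0 and 1045 at day 6, a ratio of 989 (95% counting interval 177 to 39106), and *Rbp4* had 0 and 745 counts, at least 235-fold higher. *Nampt*, which makes NAD, rose from 81.1, 131 and 188 CPM to 427, 603 and 876 CPM (2.30 ± 0.11). *Bmp8b* was the 1 member that did not pass (log2 fold change -0.11 ± 0.15, edgeR adjusted p = 0.60). Among apolipoproteins and their receptors 7 of 12 rose and 2 fell. *Apoc1* was read at 0, 0.163 and 0.430 CPM at day 0 and 113, 175 and 256 CPM at day 6 (log2 fold change 10.04 ± 0.24, edgeR adjusted p = 5.5e-28), and *Apoc3* went from 0 counts to 2076, at least 655-fold higher, both without overlap. At day 2 *Apoc1* had at most 0.275 CPM, so it entered the test only through day 6 and could not fall. The count of rises in this list is thus partly fixed by the filter. The 2 that fell were *Apod* (-4.10 ± 0.32) and *Apob* (-1.93 ± 0.32), both at low levels (day 0 medians of 5.03 and 1.03 CPM).

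Genes listed for brown adipocyte identity, not all of them restricted to brown fat, could be tested in part. Of 18 listed, 13 were measured well enough to test, 10 rose and 0 fell (median 2.43), where 32.9% of all genes rose. The 3 that did not pass the test were *Bmp8b*, *Letmd1* (0.13) and *Cpt1b* (0.30). *Cox8b* had at most 0.235 CPM at day 0 and 0.414 CPM at day 2, so it entered the test only through day 6 and could not fall. The count of rises is thus partly fixed by the filter. *Kcnk3*, a potassium channel of brown adipocytes, was read at 2.58, 5.30 and 9.37 CPM at day 0 and 33.1, 53.5 and 69.2 CPM at day 6 (log2 fold change 3.40 ± 0.21, edgeR adjusted p = 1.7e-16), with no overlap. *Elovl3*, an elongase that cold induces in brown fat, was higher at day 2 (mean 6.44 CPM) than at day 6 (median 0.471 CPM) and had 12 counts at day 0. *Ppargc1a*, the coactivator of mitochondrial biogenesis, rose by 0.63 ± 0.13, and its ranges overlapped. Of the markers more typical of white fat, 3 of 7 rose and 2 fell (*Hoxc9*, -0.79, and *Hoxc10*, -0.61), where 32.9% of all genes rose and 35.4% fell. *Agt*, encoding angiotensinogen, went from 26.0, 44.9 and 88.4 CPM to 280.2, 384 and 605 CPM (3.05 ± 0.13), and with *Retn* and *Lep* it made up most of that list's summed level, which was 47.6, 61.2 and 111 CPM at day 0 and 627, 865 and 1098 CPM at day 6. The median of that list, 0.14, turned to -0.05 with library size alone. Genes of creatine and calcium cycling, alternative routes of heat production, were tested in 7 of 14 cases. The sarcoplasmic calcium pump gene *Atp2a3* was read at 0.286, 0.705 and 2.15 CPM at day 0 and 6.38, 31.0 and 92.3 CPM at day 6 (log2 fold change 5.27 ± 0.32, edgeR adjusted p = 1.5e-16), while *Slc6a8*, the creatine transporter gene, fell from 33.5, 38.3 and 41.6 CPM to 10.1, 14.3 and 20.2 CPM (log2 fold change -1.40 ± 0.09, edgeR adjusted p = 1.7e-15).

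A set of related gene pairs, each with one form that adult heart, muscle or fat is known for and one common form, was compared per length, as the first form's share of the pair's summed CPM per kilobase of exon. The cytochrome c oxidase subunit *Cox8b* held 0, 0.0518 and 0.148% at day 0 and 5.02, 7.63 and 13.5% at day 6 of the pair with *Cox8a*, and *Cox7a1* held 0.0820, 0.261 and 0.562% at day 0 and 3.25, 6.34 and 10.9% at day 6 of the pair with *Cox7a2*. The ranges of these shares did not overlap, but at day 6 the common form still held most of the RNA. Other pairs changed their leading form. For the glucose transporters, *Slc2a4* held 0.996, 3.42 and 4.62% at day 0 and 56.5, 59.3 and 64.3% at day 6 against *Slc2a1*. For the hexokinases, *Hk2* held 3.84, 7.51 and 16.6% at day 0 and 57.9, 66.7 and 70.0% at day 6 against *Hk1*. For the long-chain acyl-CoA synthetases, *Acsl1* held 19.5, 23.6 and 29.8% at day 0 and 87.2, 90.6 and 93.2% at day 6 against *Acsl4*. In these 3 pairs the form that held the smaller share on day 0 held the larger share in all day 6 libraries. The laminin chain *Lama4* held 0, 0 and 1.15% at day 0 and 60.1, 71.6 and 83.8% at day 6 of the pair with *Lama5*. The mitochondrial ADP/ATP carriers moved the other way, with *Slc25a4*, the form of heart and muscle, at 71.5, 80.1 and 85.4% at day 0 and 48.2, 57.7 and 69.3% at day 6 of the pair with *Slc25a5*. *Ldhb* and *Aldoc*, though both rose (2.51 and 2.00), held at most 0.658% and 0.456% of their pairs in any library of these days. *Insr* held 65.4, 67.6 and 72.9% at day 0 and 93.9, 94.6 and 95.9% at day 6 of the pair with *Igf1r*.

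**Figure D2:**
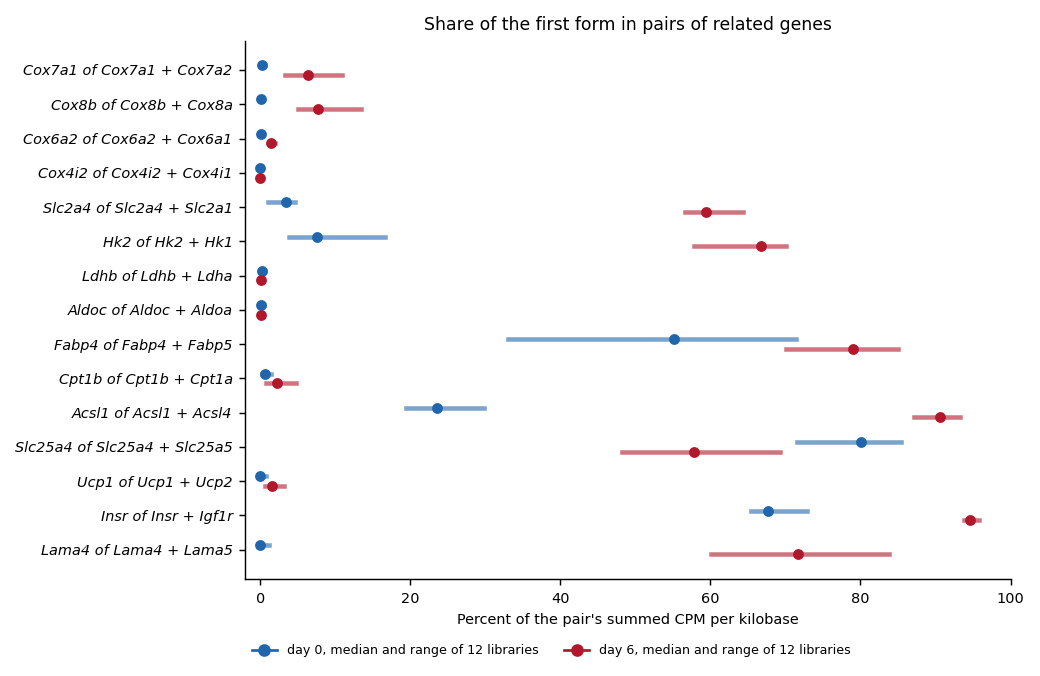
Share of the first named gene in 15 pairs of related genes, in percent of the pair's summed CPM per kilobase. Dots are medians and bars the range of the 12 libraries of day 0 (blue) and day 6 (red), and the red and blue ranges are apart for Slc2a4, Hk2, Acsl1, Insr, Lama4, Slc25a4, Cox7a1, Cox8b and Cox6a2.

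Mitochondrial energy genes rose broadly and by modest amounts. All 25 of 25 genes of the citrate cycle and pyruvate entry rose (median 1.29), and they took 0.294, 0.335 and 0.378% of all counts at day 0 and 0.767, 0.892 and 1.05% at day 6. *Pcx*, encoding pyruvate carboxylase, which refills the cycle, was read at 73.0, 97.7 and 138 CPM at day 0 and 854, 1469.8 and 2638 CPM at day 6 (log2 fold change 4.03 ± 0.19, edgeR adjusted p = 2.3e-19). *Idh3a*, a subunit of the rate-setting isocitrate dehydrogenase, was read at 32.7, 69.9 and 107 CPM at day 0 and 285, 600.4 and 727 CPM at day 6 (log2 fold change 3.03 ± 0.20, edgeR adjusted p = 1.2e-15). Neither gene overlapped between days. In fatty acid oxidation 16 of 20 rose and 2 fell (median 1.28): *Echs1*, encoding enoyl-CoA hydratase, went from 56.3, 75.3 and 93.0 CPM to 302, 379 and 533 CPM (2.37 ± 0.10) and *Acadl*, a dehydrogenase of long acyl chains, from 24.1, 52.8 and 77.0 CPM to 119, 209 and 238 CPM (1.90 ± 0.16). The 2 that fell were carnitine palmitoyltransferase genes, of which *Cpt1a* serves the entry step. *Cpt1a* was read at 75.5, 109 and 169 CPM at day 0 and 26.7, 41.1 and 56.7 CPM at day 6 (log2 fold change -1.48 ± 0.11, edgeR adjusted p = 1.2e-13), without overlap, and *Cpt1c* fell by 1.48 ± 0.12 on the log2 scale.

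Of 38 complex I subunits, 35 rose and 1 fell, but only 5 by more than 2-fold (median 0.79). *Ndufv3* was read at 67.4, 82.5 and 93.8 CPM at day 0 and 312, 359 and 464 CPM at day 6 (log2 fold change 2.16 ± 0.06, edgeR adjusted p = 1.9e-25), and *Ndufb3*, another subunit of complex I, at 39.7, 49.5 and 82.6 CPM at day 0 and 89.8, 133 and 187 CPM at day 6 (log2 fold change 1.27 ± 0.14, edgeR adjusted p = 1.4e-09). *Ndufa4*, the member that fell, is now counted with complex IV and had overlapping ranges (-0.45 ± 0.13). For complexes III, IV and V 35 of 37 rose and 0 fell (median 0.95), and their counts made up 0.749, 0.848 and 1.05% of all counts at day 0 and 1.21, 1.605 and 2.08% at day 6. The ATP synthase subunit *Atp5b* went from 1071, 1307 and 1547 CPM to 2165, 3245 and 4340.2 CPM (1.22 ± 0.09), and *Uqcrq* of complex III from 14.8, 53.0 and 96.9 CPM to 159, 215 and 266 CPM (1.92 ± 0.17), with no overlap for either. Mitochondrial ribosomal proteins showed the smallest shift of the mitochondrial lists, with 66 of 77 higher and 1 lower (*Mrpl52*, -0.22, a call lost with DESeq2, with its size factors and in each clone alone, among other alternatives), with 2 beyond 2-fold, *Mrpl12* (1.92) and *Mrps18a* (1.25), and a median of 0.47. Of the 13 protein-coding genes of the mitochondrial chromosome, 8 could be tested and all 8 rose (median 1.24). The complex IV gene *mt-Co1* was read at 6361, 7652 and 11861 CPM at day 0 and 8979.6, 14164 and 20636 CPM at day 6 (0.76 ± 0.13), with overlap, and *mt-Nd6* at 31.1, 43.3 and 56.4 CPM at day 0 and 106, 167 and 239 CPM at day 6 (1.97 ± 0.11), without. The other 5 had at most 4 counts over the 12 libraries of a day.

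Breakdown of branched-chain amino acids, which feeds carbon into adipocyte lipid, rose in 20 of 21 members and fell in 1 (median 1.75). The member that fell and one that rose most catalyse the same first step in different compartments. *Bcat1*, the cytosolic transaminase, was read at 19.5, 44.1 and 95.4 CPM at day 0 and 0.921, 3.03 and 8.62 CPM at day 6 (log2 fold change -3.86 ± 0.24, edgeR adjusted p = 1.9e-16), and *Bcat2*, the mitochondrial one, at 9.55, 23.3 and 32.7 CPM at day 0 and 69.3, 161 and 241 CPM at day 6 (log2 fold change 2.90 ± 0.23, edgeR adjusted p = 2.0e-13). Neither overlapped between days. *Aldh6a1*, of the valine branch, rose from 77.2, 114 and 142 CPM to 651, 765 and 937 CPM (2.86 ± 0.07). Peroxisomal lipid genes rose in 19 of 22 cases and fell in 1 (median 1.23). *Pex11a*, which controls peroxisome division, was read at 5.42, 12.7 and 15.4 CPM at day 0 and 79.5, 138 and 159 CPM at day 6 (log2 fold change 3.48 ± 0.17, edgeR adjusted p = 4.6e-19), and *Cat*, encoding catalase, at 65.2, 77.9 and 85.5 CPM at day 0 and 352, 449.8 and 599.9 CPM at day 6 (log2 fold change 2.58 ± 0.07, edgeR adjusted p = 1.1e-25), each without overlap. *Agps*, of ether lipid synthesis, was the member that fell (-0.39 ± 0.08).

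Glycolysis rose strongly, with 14 of 18 members higher and 2 lower (median 2.37), and 0.283, 0.355 and 0.477% of all counts at day 0 and 1.61, 1.72 and 2.02% at day 6. *Pgk1*, encoding phosphoglycerate kinase, was read at 50.6, 71.7 and 105 CPM at day 0 and 784, 1004 and 1201 CPM at day 6 (log2 fold change 3.73 ± 0.11, edgeR adjusted p = 5.1e-25). *Aldoa*, encoding aldolase, was read at 331, 440.1 and 616 CPM at day 0 and 3851, 5179 and 6893 CPM at day 6 (log2 fold change 3.57 ± 0.12, edgeR adjusted p = 3.6e-24), and *Gapdh* at 125, 184 and 221 CPM at day 0 and 803, 1049 and 1234 CPM at day 6 (log2 fold change 2.52 ± 0.08, edgeR adjusted p = 1.0e-24). None of the 3 overlapped between days. The 2 that fell were both enolases of other tissues, *Eno3* of muscle (-1.15 ± 0.13) and *Eno2* of neurons (-2.23 ± 0.13). In cholesterol synthesis the members were divided. Of 21 members 8 rose and 11 fell (median -0.25). *Idi1*, an isomerase that makes a building block of sterols, was read at 15.1, 23.2 and 33.5 CPM at day 0 and 7.93, 11.9 and 15.4 CPM at day 6 (log2 fold change -0.97 ± 0.11, edgeR adjusted p = 1.9e-09), with overlap, and *Pmvk*, a kinase of mevalonate use, at 40.0, 63.7 and 87.6 CPM at day 0 and 85.3, 120.2 and 207 CPM at day 6 (0.92 ± 0.09), also with overlap. With the genotypes of each clone, day and number summed, these counts were 5 and 7, and with library size alone 3 and 12. In clone 48 alone they were 2 and 9 (median -0.31), and in clone 66 alone 8 and 3 (median -0.12). The division thus differed by clone and by scaling, although 0 members were called in the test of clone by day.

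**Figure D3:**
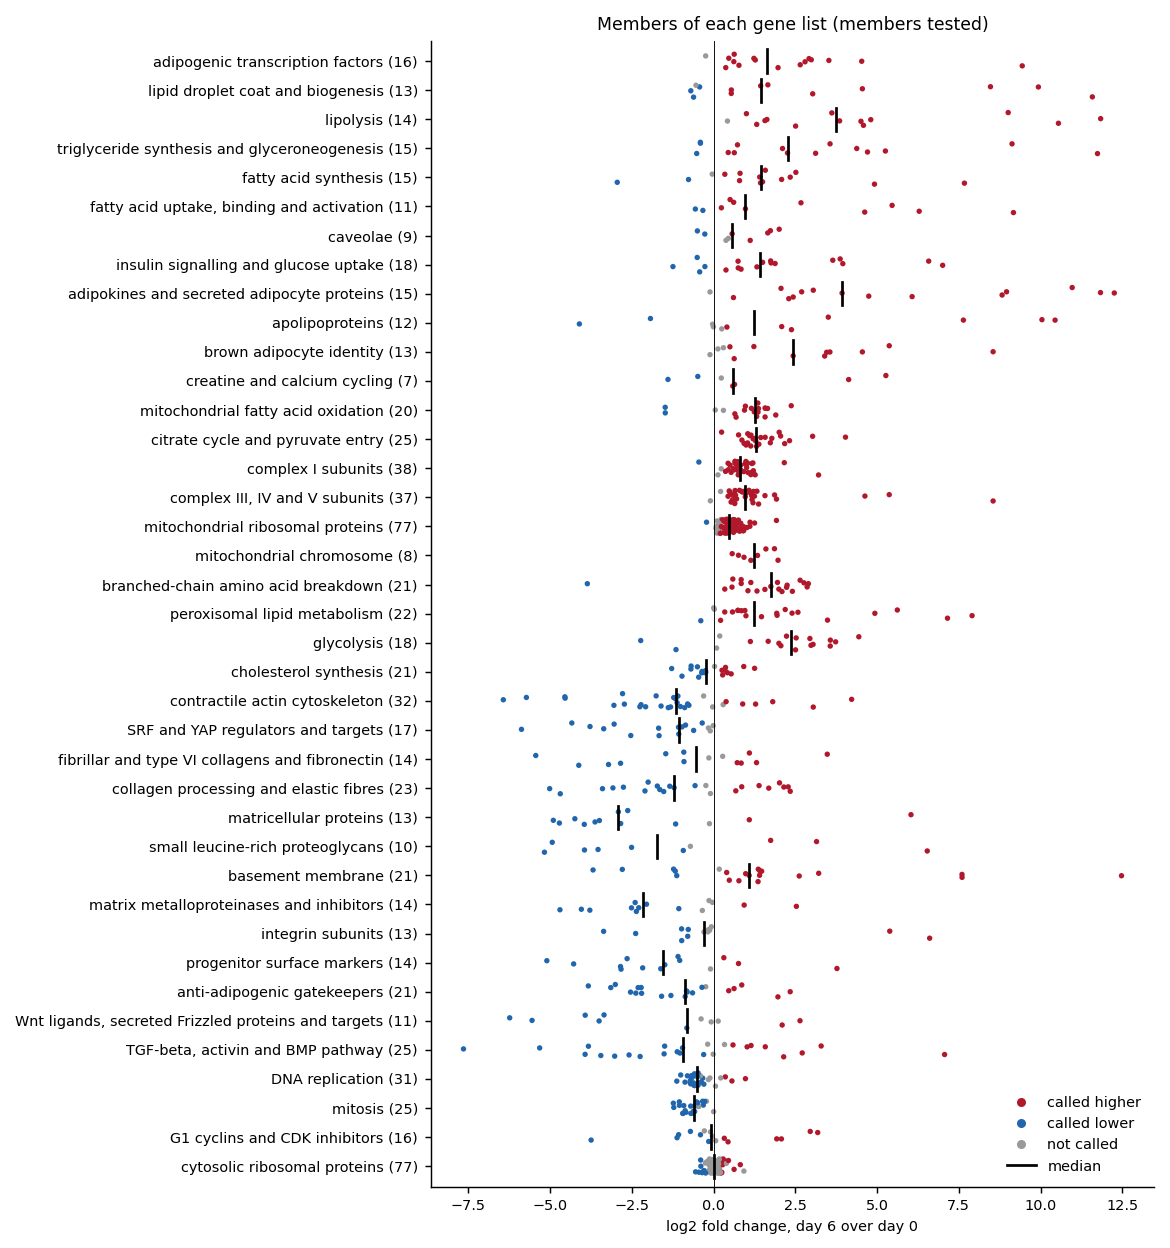
Log2 fold change of day 6 over day 0 (horizontal axis) of each tested member of 39 gene lists, with the number tested in brackets. Red points were called higher, blue lower and grey not called, and black bars are list medians. Medians run from 3.93 for secreted adipocyte proteins to -2.91 for matricellular proteins, and fitted changes of genes with almost no counts on one day are no exact sizes.

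**Figure D4:**
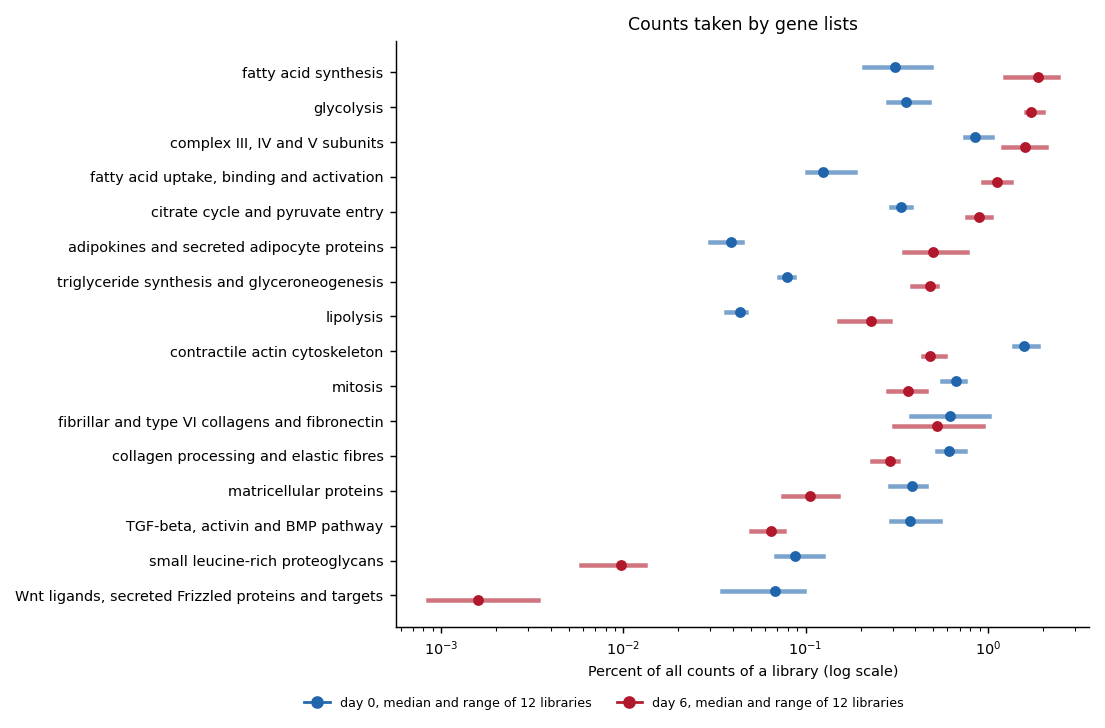
Share of all counts of a library taken by 16 gene lists, in percent on a log scale. Dots are medians and bars the range of the 12 libraries of day 0 (blue) and day 6 (red). The ranges overlap for fibrillar collagens and fibronectin and are apart for the other lists, and fatty acid synthesis went from a median of 0.31% to 1.87%.

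Of the 46 lists, the contractile cytoskeleton lost the most as a share of counts, and its genes took 1.39, 1.59 and 1.89% of all counts at day 0 and 0.439, 0.479 and 0.581% at day 6. Of 32 members 23 fell and 6 rose, 16 and 3 of them by more than 2-fold, with a median of -1.16. *Acta2*, the smooth muscle actin of stress fibres and myofibroblasts, was read at 123, 289 and 430.4 CPM at day 0 and 2.41, 3.13 and 5.05 CPM at day 6 (log2 fold change -6.43 ± 0.21, edgeR adjusted p = 6.3e-24). *Myl9*, a regulatory myosin light chain, was read at 59.1, 85.8 and 141 CPM at day 0 and 0.940, 1.57 and 2.80 CPM at day 6 (log2 fold change -5.72 ± 0.19, edgeR adjusted p = 9.6e-24). Every day 6 library lay far below the day 0 range for both. *Vim*, encoding the intermediate filament vimentin, was read at 3619, 4124 and 4749 CPM at day 0 and 749, 1007 and 1217 CPM at day 6 (log2 fold change -2.08 ± 0.08, edgeR adjusted p = 7.4e-22), and *Actb*, the cytoplasmic actin, at 2899, 3263 and 4841 CPM at day 0 and 1228, 1505 and 1732 CPM at day 6 (log2 fold change -1.32 ± 0.10, edgeR adjusted p = 2.5e-13). Both were lower in all day 6 libraries, yet remained among the abundant transcripts. The 6 members that rose included *Acta1* (1.81), the actin of skeletal muscle, *Mylk* (0.89), a myosin light chain kinase, and *Csrp1* (0.38), a LIM protein read at 131, 177 and 242 CPM at day 0 and 195, 229 and 311 CPM at day 6, with overlap. *Myh11*, the smooth muscle myosin, was read at 0.864, 1.34 and 2.00 CPM at day 0 and 12.3, 21.7 and 43.3 CPM at day 6 (log2 fold change 4.22 ± 0.21, edgeR adjusted p = 6.2e-19), *Des*, encoding desmin, at 0.661, 2.47 and 4.50 CPM at day 0 and 14.2, 20.6 and 29.9 CPM at day 6 (3.05 ± 0.15), and *Myh10* at 37.2, 78.6 and 109.9 CPM at day 0 and 78.5, 203 and 293 CPM at day 6 (1.28 ± 0.21). Read pairs that fit several actin genes were left out of the counts, so levels of single actins are uncertain.

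None of the 17 regulators and targets of SRF and YAP rose and 14 fell (median -1.07), where 35.4% of all genes fell. *Ankrd1*, a target of YAP, was read at 93.4, 161 and 269 CPM at day 0 and 0.964, 2.49 and 5.77 CPM at day 6 (log2 fold change -5.87 ± 0.22, edgeR adjusted p = 2.5e-22), and *Fhl2*, a LIM protein of focal adhesions, at 79.4, 105 and 172 CPM at day 0 and 3.66, 5.16 and 9.86 CPM at day 6 (log2 fold change -4.33 ± 0.16, edgeR adjusted p = 5.1e-23). Neither overlapped between days. *Ccn1* (-3.36 ± 0.22) and *Ccn2* (-3.78 ± 0.24), both secreted targets, fell likewise. Among the regulators, *Srf* had a log2 fold change of -0.86 ± 0.10 and *Tead1*, the DNA-binding partner of YAP, of -1.07 ± 0.10, while *Yap1* (log2 fold change -0.10 ± 0.20, edgeR adjusted p = 0.66) and *Wwtr1* (log2 fold change -0.014 ± 0.06, edgeR adjusted p = 0.85) did not pass the test.

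The start sites of these genes were read from RefSeq promoter sequences of GRCm38.p6 (250 bases before and 50 after the start), to show where letters of known SRF and TEAD elements occur. The CArG box, the element bound by SRF, was found on either strand in 1.63% of all 32851 promoters, in 1.65% of those of the genes tested, in 2.69% of promoters of genes that fell by more than 2-fold, in 2.1% of those that rose as much, and in 7 of 28 promoters of the contractile list. The TEAD element GGAATG occurred in 14.7% of all promoters, in 14.6% of those of the genes tested, in 18.4% and 15.6% of those that fell and rose, in 12 of 28 of the contractile list and in 10 of 14 of the SRF and YAP list. The matches were not confined to genes that fell. In the contractile list *Acta1*, which rose, held both elements, and *Mylk* and *Myh10*, which also rose, held the TEAD element. So did *Yap1* and *Wwtr1*, which did not pass the test. A match is a run of letters and not a measured binding site, and the promoters shown are all of genes that fell. Shown 5′ to 3′ in the direction of transcription, with the CArG box in capitals, are *Myl9* (chr2:156775214-156775513 on the plus strand), *Cnn2*, a calponin that fell by 4.54 ± 0.10 on the log2 scale (chr10:79988350-79988649 on the plus strand), and *Actg1*, a cytoplasmic actin that fell by 1.61 ± 0.19 on the log2 scale (chr11:120348446-120348745 on the minus strand), and with the TEAD elements in capitals *Ankrd1* (chr19:36119795-36120094 on the minus strand), where they begin 210 and 123 bases before the start.
Myl9: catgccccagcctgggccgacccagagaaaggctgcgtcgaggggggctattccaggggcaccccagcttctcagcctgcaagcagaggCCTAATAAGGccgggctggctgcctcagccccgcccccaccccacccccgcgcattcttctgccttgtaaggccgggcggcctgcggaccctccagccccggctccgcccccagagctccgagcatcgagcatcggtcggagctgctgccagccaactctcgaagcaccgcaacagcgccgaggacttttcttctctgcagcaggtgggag
Cnn2: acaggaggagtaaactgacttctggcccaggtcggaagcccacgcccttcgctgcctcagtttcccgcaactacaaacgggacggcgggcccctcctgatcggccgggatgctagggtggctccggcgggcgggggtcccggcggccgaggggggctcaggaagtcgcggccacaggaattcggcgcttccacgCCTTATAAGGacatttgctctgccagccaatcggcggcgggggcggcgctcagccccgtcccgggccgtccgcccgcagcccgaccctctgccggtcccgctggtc
Actg1: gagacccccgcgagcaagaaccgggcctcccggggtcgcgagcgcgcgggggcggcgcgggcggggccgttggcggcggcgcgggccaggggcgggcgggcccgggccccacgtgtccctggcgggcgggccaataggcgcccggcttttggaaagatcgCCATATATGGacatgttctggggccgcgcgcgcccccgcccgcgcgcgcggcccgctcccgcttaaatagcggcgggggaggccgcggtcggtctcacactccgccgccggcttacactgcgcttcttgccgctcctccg
Ankrd1: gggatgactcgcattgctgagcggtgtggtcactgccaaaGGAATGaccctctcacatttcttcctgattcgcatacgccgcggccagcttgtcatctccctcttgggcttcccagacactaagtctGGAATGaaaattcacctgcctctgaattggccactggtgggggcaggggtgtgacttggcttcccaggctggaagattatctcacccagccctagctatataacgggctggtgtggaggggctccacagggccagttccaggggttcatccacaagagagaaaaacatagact

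The extracellular matrix lists moved in different directions. Of 14 fibrillar and type VI collagens with fibronectin, 7 fell and 5 rose (median -0.53), and their share of counts overlapped between days (0.380, 0.619 and 1.01% of all counts at day 0 and 0.306, 0.529 and 0.938% at day 6). Over all genes 35.4% fell and 32.9% rose. *Col12a1*, a collagen that lies along fibrils, was read at 150.5, 272 and 364 CPM at day 0 and 11.6, 15.4 and 20.0 CPM at day 6 (log2 fold change -4.12 ± 0.17, edgeR adjusted p = 1.8e-21), and *Col8a1* at 19.4, 52.9 and 121 CPM at day 0 and 0.550, 0.917 and 2.86 CPM at day 6 (log2 fold change -5.44 ± 0.32, edgeR adjusted p = 9.9e-17), both without overlap. *Col1a2*, of the main fibril of connective tissue, fell by 2.84 ± 0.26 on the log2 scale and *Col1a1* fell by 1.46 ± 0.38 on the log2 scale, each with overlapping ranges. *Col6a2*, of the beaded network around adipocytes, was read at 198, 330.5 and 675 CPM at day 0 and 285, 731 and 1410.1 CPM at day 6 (log2 fold change 1.09 ± 0.27, edgeR adjusted p = 5.7e-04), and *Fn1*, fibronectin, at 139, 236 and 644 CPM at day 0 and 244, 479 and 1235 CPM at day 6 (log2 fold change 1.31 ± 0.32, edgeR adjusted p = 5.1e-04), both with overlap. *Col5a3* (3.48), *Col11a1* (0.84) and *Col6a1* (0.72) were the other members that rose. In the enzymes and fibre proteins that process collagen, 13 of 23 fell and 8 rose (median -1.21). *Lox*, the lysyl oxidase that cross-links collagen and elastin, was read at 1943, 2680.4 and 3660.4 CPM at day 0 and 66.9, 109 and 158 CPM at day 6 (log2 fold change -4.69 ± 0.18, edgeR adjusted p = 3.6e-22), and *Fbn1*, fibrillin of elastic fibres, at 73.9, 139 and 194 CPM at day 0 and 6.60, 10.3 and 28.2 CPM at day 6 (log2 fold change -3.40 ± 0.27, edgeR adjusted p = 2.0e-13). No day 6 library reached a day 0 library for either. The hydroxylases that act on collagen chains inside the cell moved the other way, with *Plod2* at 97.9, 123 and 146 CPM at day 0 and 480.1, 566 and 691 CPM at day 6 (log2 fold change 2.28 ± 0.15, edgeR adjusted p = 7.6e-16) and *P4ha2* at 19.2, 43.0 and 72.6 CPM at day 0 and 98.1, 179 and 269 CPM at day 6 (log2 fold change 2.15 ± 0.13, edgeR adjusted p = 7.5e-17), also without overlap.

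Matricellular proteins, which signal from the matrix to cells, fell in 10 of 13 members and rose in 2 (median -2.91, 0.292, 0.383 and 0.455% of all counts at day 0 and 0.0747, 0.105 and 0.151% at day 6). *Thbs1*, a thrombospondin that activates latent TGF-beta, was read at 449, 802 and 1215 CPM at day 0 and 15.2, 64.6 and 183 CPM at day 6 (log2 fold change -3.63 ± 0.35, edgeR adjusted p = 2.5e-11). *Tnc*, encoding tenascin C, was read at 8.88, 25.7 and 37.9 CPM at day 0 and 0.407, 0.584 and 1.604 CPM at day 6 (log2 fold change -4.90 ± 0.26, edgeR adjusted p = 4.0e-18). Neither overlapped between days, while *Sparc* did not pass the test (log2 fold change -0.13 ± 0.17, edgeR adjusted p = 0.53). The 2 that rose were *Smoc1* (6.04 ± 0.35) and *Tnxb* (1.09 ± 0.14). Small leucine-rich proteoglycans fell in 6 of 10 and rose in 3 (median -1.72). *Ogn*, encoding osteoglycin, was read at 257, 352 and 642 CPM at day 0 and 5.09, 10.1 and 20.8 CPM at day 6 (log2 fold change -5.17 ± 0.26, edgeR adjusted p = 1.1e-18), and *Prelp*, which rose with *Podn* (3.15) and *Lum* (1.74), at 0, 0.261 and 0.664 CPM at day 0 and 8.17, 22.7 and 62.2 CPM at day 6 (log2 fold change 6.53 ± 0.35, edgeR adjusted p = 5.7e-18). Of the metalloproteinases and their inhibitors 9 of 14 fell and 2 rose (median -2.17). *Mmp14*, the membrane-bound collagenase, was read at 239.5, 339 and 564 CPM at day 0 and 38.7, 77.0 and 157 CPM at day 6 (log2 fold change -2.05 ± 0.18, edgeR adjusted p = 5.4e-12), and the inhibitor gene *Timp2* at 125, 202 and 288 CPM at day 0 and 7.71, 9.67 and 20.0 CPM at day 6 (log2 fold change -4.04 ± 0.21, edgeR adjusted p = 3.2e-18). The days were apart for all 4 of these genes. The 2 that rose were *Mmp28* (2.53 ± 0.13) and *Mmp19* (0.93 ± 0.15).

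The basement membrane, the sheet that surrounds each fat cell, was the matrix list that rose: 15 of 21 members were higher and 5 lower (median 1.09). *Lama4* (chr10:38965515-39110188), the laminin alpha chain of adipocytes, had 3 counts over all day 0 libraries and 20930 at day 6, a ratio of 6604 (95% counting interval 2259 to 32025). *Col15a1* was read at 0.2498, 1.84 and 5.99 CPM at day 0 and 101, 328 and 644 CPM at day 6 (log2 fold change 7.60 ± 0.47, edgeR adjusted p = 2.5e-16), and *Col4a1*, of the collagen IV network, at 313, 539.7 and 609 CPM at day 0 and 727, 1314 and 2306 CPM at day 6 (log2 fold change 1.47 ± 0.21, edgeR adjusted p = 1.7e-07), both without overlap. Other chains of the same network fell, *Col4a6* from 94.4, 125 and 184 CPM to 12.3, 18.5 and 31.4 CPM (-2.79 ± 0.12) and *Col4a5*, which fell by 1.22 ± 0.13 on the log2 scale, as did the laminin genes *Lama3* (-3.69), *Lamb2* (-1.17) and *Lama2* (-1.13). Of 13 integrin subunits, which bind cells to the matrix, 2 rose and 6 fell. *Itga6* (0.0469, 2.56 and 12.4 CPM at day 0 and 56.6, 194 and 489 CPM at day 6; 6.61 ± 0.31) and *Itga7* (1.03, 1.35 and 2.12 CPM at day 0 and 47.3, 62.2 and 78.4 CPM at day 6; 5.39 ± 0.12), alpha chains of laminin receptors, rose without overlap. *Itga3*, also of a laminin receptor, fell from 32.2, 53.1 and 92.2 CPM to 5.64, 9.45 and 17.3 CPM (-2.38 ± 0.23), and *Itga5*, of the fibronectin receptor, fell by 0.98 ± 0.29 on the log2 scale. *Itgb1*, the common beta chain, was read at 1069, 1274 and 1571 CPM at day 0 and 714, 763 and 805 CPM at day 6 (log2 fold change -0.78 ± 0.06, edgeR adjusted p = 5.3e-14).

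Progenitor surface markers fell in 10 of 14 tested members and rose in 3 (median -1.55). *Ly6a*, the stem cell antigen Sca-1, was read at 16.2, 48.3 and 97.9 CPM at day 0 and 0.321, 1.32 and 3.83 CPM at day 6 (log2 fold change -5.10 ± 0.18, edgeR adjusted p = 2.4e-23), and *Vcam1*, an adhesion molecule, at 341, 498 and 728 CPM at day 0 and 18.9, 26.2 and 31.2 CPM at day 6 (log2 fold change -4.28 ± 0.08, edgeR adjusted p = 1.7e-31). *Pdgfra* fell by 2.17 ± 0.21 on the log2 scale without overlap, and *Pdgfrb* fell by 1.62 ± 0.23 on the log2 scale with overlap. *Nt5e*, encoding the ectonucleotidase CD73, rose from 0.560, 1.36 and 2.10 CPM to 9.12, 17.6 and 33.1 CPM (3.77 ± 0.24), and *Ncam1* (0.76) and *Cd81* (0.31) rose by less. Of 21 transcription factors and cofactors known to restrain adipogenesis, 15 fell and 5 rose (median -0.87). *Id2* was read at 18.1, 31.8 and 58.2 CPM at day 0 and 2.31, 4.38 and 7.54 CPM at day 6 (log2 fold change -3.00 ± 0.19, edgeR adjusted p = 6.6e-16), *Snai2* at 14.7, 32.0 and 46.6 CPM at day 0 and 2.31, 5.36 and 8.90 CPM at day 6 (log2 fold change -2.54 ± 0.24, edgeR adjusted p = 1.5e-11) and *Gata2* at 1.45, 4.60 and 8.39 CPM at day 0 and 0, 0.291 and 0.713 CPM at day 6 (log2 fold change -3.83 ± 0.36, edgeR adjusted p = 1.2e-11), none with overlap. *Ddit3*, encoding the stress factor CHOP, rose from 37.2, 42.2 and 48.4 CPM to 122, 217 and 332 CPM (log2 fold change 2.34 ± 0.18, edgeR adjusted p = 8.3e-14), as did *Hes1* (1.97), *Foxo3* (0.86), *Nr2f1* (0.63) and *Id1* (0.46).

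Several abundant secreted signals of the precursor fell. Of 11 tested genes of the Wnt list (of 30), 6 fell and 2 rose (median -0.82), and the list took 0.0347, 0.0679 and 0.0974% of all counts at day 0 and 0.000844, 0.00159 and 0.00340% at day 6. Its summed level was 313, 621 and 856 CPM at day 0 and 8.79, 16.4 and 35.9 CPM at day 6, nearly all of it *Sfrp2* at day 0. *Sfrp2*, a secreted Wnt modulator, was read at 277, 583 and 824 CPM at day 0 and 2.37, 7.29 and 25.0 CPM at day 6 (log2 fold change -6.24 ± 0.32, edgeR adjusted p = 1.3e-18), and *Rspo2*, which amplifies Wnt signals, at 10.3, 23.8 and 52.2 CPM at day 0 and 0.169, 0.478 and 1.29 CPM at day 6 (log2 fold change -5.55 ± 0.30, edgeR adjusted p = 8.6e-18). *Wnt10b*, an anti-adipogenic ligand, fell by 3.93 ± 0.26 on the log2 scale. The 2 that rose, *Axin2* (2.64 ± 0.20) and *Lef1* (2.10 ± 0.28), are known targets of Wnt signalling, and *Axin2* was read at 0.102, 0.392 and 0.971 CPM at day 0 and 1.83, 2.46 and 4.48 CPM at day 6. In the TGF-beta, activin and BMP list 14 of 25 fell and 8 rose (median -0.95), with 0.294, 0.376 and 0.546% of all counts at day 0 and 0.0501, 0.0645 and 0.0761% at day 6. *Grem1* (chr2:113746164-113758646), a BMP antagonist, was read at 909.6, 1058 and 1456 CPM at day 0 and 2.55, 5.37 and 9.94 CPM at day 6 (log2 fold change -7.65 ± 0.19, edgeR adjusted p = 1.4e-27). *Fstl1*, a follistatin-like glycoprotein of precursors, was read at 1034, 1779 and 2861 CPM at day 0 and 70.4, 132 and 187 CPM at day 6 (log2 fold change -3.83 ± 0.09, edgeR adjusted p = 2.2e-28). For both genes the days did not overlap. The activin antagonist gene *Fst* (-5.32 ± 0.43) and the activin subunit gene *Inhba* (-3.93 ± 0.47) fell together, while the other subunit gene, *Inhbb*, rose by 3.29 ± 0.25. *Nog*, another BMP antagonist, went from 0 counts to 204, at least 64.4-fold higher, and the receptor gene *Tgfbr1* rose from 31.9, 44.2 and 61.0 CPM to 105, 125 and 159 CPM (1.58 ± 0.07).

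Proliferation genes fell by small amounts and remained expressed. In mitosis 22 of 25 members fell and none rose (median -0.61), but 1, *Kif23* (-1.22), fell by more than 2-fold, and the list took 0.558, 0.672 and 0.745% of all counts at day 0 and 0.284, 0.364 and 0.460% at day 6. *Cenpe*, a kinetochore motor, was read at 164, 247 and 315 CPM at day 0 and 39.0, 103 and 162 CPM at day 6 (log2 fold change -1.23 ± 0.31, edgeR adjusted p = 8.3e-04), without overlap, and *Mki67* at 359, 465 and 597 CPM at day 0 and 95.1, 283 and 396 CPM at day 6 (log2 fold change -0.87 ± 0.26, edgeR adjusted p = 0.0034), with overlap. Of 31 DNA replication genes 23 fell and 3 rose (median -0.49), none by more than 2-fold. *Mcm5*, a helicase subunit, was read at 309.8, 369.7 and 457 CPM at day 0 and 163, 188 and 217 CPM at day 6 (log2 fold change -1.01 ± 0.05, edgeR adjusted p = 1.0e-18), and *Ccne1*, which starts S phase, rose from 17.1, 21.9 and 27.4 CPM to 39.0, 43.0 and 49.8 CPM (0.97 ± 0.08), with *Cdt1* (0.56) and *Ccne2* (0.36) the others that rose. Of 16 G1 regulators 6 rose and 6 fell, close to the 32.9% and 35.4% of all genes. Cyclin D1 and D2 moved in opposite directions, *Ccnd1* at 4.18, 16.8 and 37.8 CPM at day 0 and 0.277, 1.26 and 1.76 CPM at day 6 (log2 fold change -3.75 ± 0.34, edgeR adjusted p = 9.0e-12) and *Ccnd2* at 4.69, 16.9 and 54.2 CPM at day 0 and 76.2, 182 and 265 CPM at day 6 (log2 fold change 3.18 ± 0.29, edgeR adjusted p = 1.1e-11), both without overlap, and *Cdkn1a*, encoding the inhibitor p21, rose by 2.96 ± 0.36. Cytosolic ribosomal proteins showed no net shift (12 up and 8 down of 77, median -0.0012); with library size alone 3 were higher and 29 lower, and with RLE factors the median was 0.02.

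Promoters of mitotic genes often hold the cell cycle homology region, read here as TTTGAA on either strand, and promoters of respiratory genes the element of NRF1, so 1 promoter of each kind is shown. TTTGAA occurred in 17.9% of all promoters, in 14.5% of those of the genes tested, in 15.7% of those of genes that fell and 15.4% of those that rose by more than 2-fold, and in 16 of 21 of the mitosis list. The NRF1 element occurred in 0.971% of all promoters and 2.27% of those of the genes tested, in 0.577% and 1.53% of those that fell and rose, both below the share of the genes tested, and in 4 of 30 of the list of complexes III, IV and V. In the other mitochondrial lists it was rarer. It was found in 1 of 33 promoters of complex I and 3 of 69 of mitochondrial ribosomal proteins. For fatty acid oxidation it was found in 1 of 17, and for the citrate cycle in 0 of 22. DR1, the element of PPARγ with an RXR, was found in 5 of 10699 genes tested, 1 of 1047 that rose and 0 of 1039 that fell. In the same order the C/EBP palindrome was found in 0.346, 0.382 and 0.289%. The element of estrogen-related receptors was found in 0.308, 0.287 and 0.385%, and the TATA box in 9.03, 11.7 and 14.5%. *Ccnb2* (cyclin B2; chr9:70421505-70421804 on the minus strand), with TTTGAA in capitals, had -0.58 ± 0.10, and *Uqcrc1* of complex III (chr9:108936398-108936697 on the plus strand), with the NRF1 element in capitals, had 1.21 ± 0.08 as its log2 fold change.
Ccnb2: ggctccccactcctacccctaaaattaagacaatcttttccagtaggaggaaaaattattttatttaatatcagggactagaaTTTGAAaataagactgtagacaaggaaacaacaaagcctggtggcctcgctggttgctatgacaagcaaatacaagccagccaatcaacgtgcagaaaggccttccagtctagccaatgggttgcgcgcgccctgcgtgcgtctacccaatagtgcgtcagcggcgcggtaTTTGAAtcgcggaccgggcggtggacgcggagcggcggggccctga
Uqcrc1: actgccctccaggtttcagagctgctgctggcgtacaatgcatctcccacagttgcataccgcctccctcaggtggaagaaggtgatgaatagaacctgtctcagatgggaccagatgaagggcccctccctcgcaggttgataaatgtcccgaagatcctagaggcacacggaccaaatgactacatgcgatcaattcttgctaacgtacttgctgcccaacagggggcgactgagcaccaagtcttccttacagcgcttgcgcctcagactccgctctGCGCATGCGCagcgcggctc

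Among genes whose log2 CPM averaged 5 or more, the 10 largest rises were those of *Dapk1*, *Lama4*, *Mfng*, *Retn*, *Ffar2*, *Mgll*, *Cfd*, *Car3*, *Adig* and *Plin1*. *Dapk1* (chr13:60601947-60763191), a calmodulin-regulated kinase linked to cell death and autophagy, had 3 counts over the 12 day 0 libraries and 88.1, 151 and 193 CPM at day 6, a ratio of 9934 (95% counting interval 3399 to 48172). *Mfng*, a glycosyltransferase that modifies Notch, went from 3 counts to 61.1, 108 and 155 CPM, a ratio of 7539 (95% counting interval 2579 to 36561). Neither had more than 3 counts over the day 0 group, so the fitted changes of these 2 genes and of *Lama4* are no measure of size. *Ffar2*, a receptor for short-chain fatty acids, was read at 0, 0 and 0.0938 CPM at day 0 and 58.8, 76.7 and 139.6 CPM at day 6, *Car3*, the carbonic anhydrase abundant in fat, at 0, 0 and 0.148 CPM at day 0 and 39.0, 106 and 321 CPM at day 6, and *Adig*, encoding adipogenin, at 0, 0.0743 and 0.172 CPM at day 0 and 191, 274 and 373 CPM at day 6. The 10 largest falls were those of *Grem1*, *Acta2*, *Sfrp2*, *Ankrd1*, *Ptn*, *S100a4*, *Slc6a17*, *Gpnmb*, *Tm4sf1* and *Ogn*. *Ptn*, encoding the growth factor pleiotrophin, was read at 2071, 3169.6 and 3562 CPM at day 0 and 39.5, 49.1 and 72.4 CPM at day 6 (log2 fold change -5.85 ± 0.16, edgeR adjusted p = 1.1e-26). *S100a4*, a calcium-binding protein also called fibroblast-specific protein, was read at 604, 879.9 and 1284 CPM at day 0 and 6.75, 17.8 and 31.3 CPM at day 6 (log2 fold change -5.84 ± 0.24, edgeR adjusted p = 3.9e-21). *Gpnmb*, a transmembrane glycoprotein, was read at 382, 562 and 923 CPM at day 0 and 7.62, 11.3 and 17.4 CPM at day 6 (log2 fold change -5.60 ± 0.18, edgeR adjusted p = 1.3e-24). All 20 genes were apart between days in all libraries, but they were picked as the largest changes in these same libraries, so this is largely built in. Over all genes tested, 12.2% had every day 6 library above every day 0 library, and 11% had every one below.

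The clones were also fitted alone. Of the 3281 genes that changed by more than 2-fold, 3128 were called in the same direction in clone 48 alone, 3158 in clone 66 alone and 3008 in both. These genes were picked by the fit over both clones, which holds the same libraries, so much of this agreement is built in. The size of the change differed between clones for 644 genes (3.85%), 352 with the greater rise or smaller fall in clone 66 and 292 in clone 48. *Cidec* was read at 2.35, 3.76 and 4.47 CPM at day 0 and 586, 614 and 674 CPM at day 6 in clone 48 and at 0.286, 0.469 and 0.559 CPM at day 0 and 483, 583 and 667 CPM at day 6 in clone 66, where each clone has 6 libraries per day (difference of log2 fold changes, 66 minus 48, 2.90 ± 0.18, edgeR adjusted p = 5.8e-12). *Igf1*, encoding the growth factor, was read at 1.27, 2.78 and 3.88 CPM at day 0 and 125, 141 and 174 CPM at day 6 in clone 48 and at 12.03, 18.5 and 22.5 CPM at day 0 and 54.0, 92.7 and 116 CPM at day 6 in clone 66 (-3.47 ± 0.34, edgeR adjusted p = 1.0e-07). *Hsd11b1*, which activates glucocorticoids, was read at 0.726, 1.45 and 2.74 CPM at day 0 and 69.1, 87.1 and 113 CPM at day 6 and at 0.0862, 0.420 and 0.610 CPM at day 0 and 133, 145 and 255 CPM at day 6 (3.03 ± 0.44, edgeR adjusted p = 3.2e-05). In each of the 3 genes the clones were closer at day 6 than at day 0. *Steap4*, a metalloreductase, had 0.152, 0.373 and 0.809 CPM at day 0 and 124, 153 and 212 CPM at day 6 in clone 48 and 0, 0.0216 and 0.0508 CPM at day 0 and 71.9, 87.6 and 120.3 CPM at day 6 in clone 66 (2.88 ± 0.61, edgeR adjusted p = 0.0046). *Ankef1* had 0 counts at day 0 in clone 48, where its day 6 level was at least 3252-fold higher, and it was read at 2.93, 3.86 and 5.54 CPM at day 0 and 66.9, 83.4 and 105 CPM at day 6 in clone 66, so its fitted difference depends on the prior count. Clone and library pool coincide here, and the part of either was not tested.

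**Figure D5:**
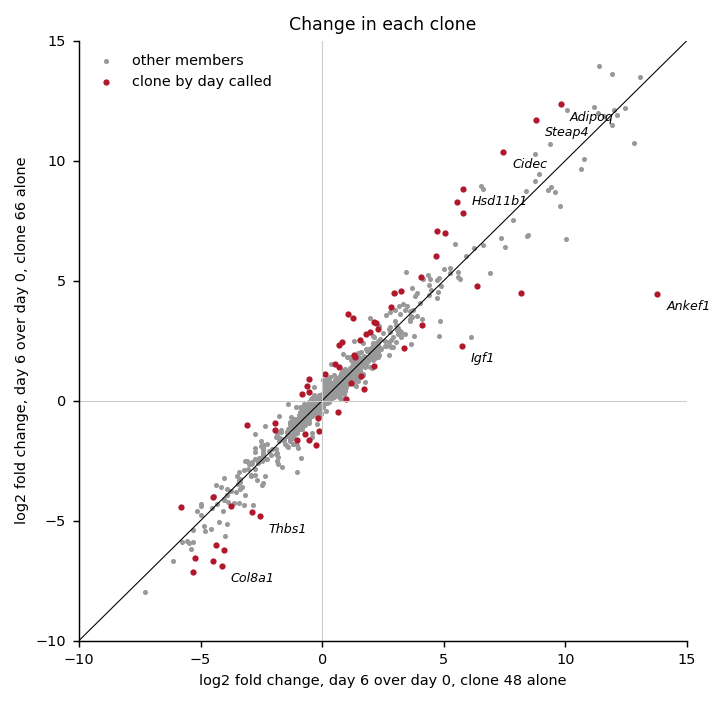
Log2 fold change of day 6 over day 0 in clone 48 alone (horizontal) and clone 66 alone (vertical) for 990 members of the gene lists and named genes. The line marks equal change, and the 64 red points are members whose change differed between clones. Ankef1, Igf1, Cidec, Hsd11b1, Steap4, Adipoq, Thbs1 and Col8a1 are labelled, and most points lie near the line.

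No gene's change from day 0 to day 6 was called different between RxraSA and RxraWT (0 of 16723, 0%, edgeR, with 128 genes at an unadjusted p under 0.05, and DESeq2 with 0 called and 109 unadjusted). Fitted in each genotype alone, the log2 fold change of *Pparg* was 2.77 with RxraWT and 2.79 with RxraSA, that of *Adipoq* 10.93 and 10.96, that of *Acta2* -6.50 and -6.39, and that of *Grem1* -7.74 and -7.59. A p-value that misses the threshold does not show that the genotypes act alike.

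Markers of other cell types that a culture could hold were low, and some of them moved. Of 4 macrophage markers tested 1 was higher (*Cd68*, 0.27) and 3 lower (*Cd14*, -1.35, *Fcgr1*, -1.43, and *Lyz2*, -3.82), and their summed level was 13.6, 17.9 and 21.7 CPM at day 0 and 8.998, 11.3 and 15.2 CPM at day 6. Endothelial markers gave 1.08, 1.40 and 2.59 CPM at day 0 and 0.418, 0.9895 and 1.40 CPM at day 6 in sum, with *Pecam1* higher (0.58) and *Vwf* lower (-1.29). Of the skeletal muscle markers 1 could be tested, *Actn3*, and it fell (2.81, 5.15 and 7.40 CPM at day 0 and 0.0621, 0.223 and 0.482 CPM at day 6), while *Myf5*, which defines muscle precursors, had 6 counts at day 0 and 0 at day 6. Smooth muscle markers were higher in 2 and lower in 3 of 7, with a sum of 19.2, 25.2 and 38.2 CPM at day 0 and 38.5, 55.0 and 80.1 CPM at day 6, most of it *Myh11* and *Des* at day 6. Schwann cell and neuron markers were higher in 2 (*Snap25*, from 0 to 256 counts, and *Syp*, 0.68) and lower in 3 of 6, with a sum of 8.15, 14.7 and 23.0 CPM at day 0 and 4.02, 7.47 and 13.0 CPM at day 6. Bone and cartilage markers were higher in 2 and lower in 2 of 4, with a sum of 10.6, 15 and 23.4 CPM at day 0 and 26.9, 44.7 and 79.3 CPM at day 6. In that list *Alpl*, a phosphatase also used in creatine cycling, was read at 0.890, 2.14 and 6.43 CPM at day 0 and 23.6, 40.2 and 68.8 CPM at day 6 (log2 fold change 4.13 ± 0.31, edgeR adjusted p = 7.2e-14), and *Runx2*, the factor that directs bone formation, at 4.98, 7.20 and 10.9 CPM at day 0 and 0.930, 1.29 and 2.81 CPM at day 6 (log2 fold change -2.31 ± 0.16, edgeR adjusted p = 1.2e-14), both without overlap. The part of such cells in the results was not tested.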

How the data were processed

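RNA was sequenced as 36 libraries (clone 48 or 66, RxraWT or RxraSA, days 0, 2 and 6, 3 libraries each). Whether the 3 libraries of a group came from separate cultures is not settled. The authors aligned reads with STAR 2.7.0d to GRCm38.p6 (GENCODE M21) and deposited featureCounts 1.6.2 counts per gene, without a strand option, so reads of overlapping or antisense genes cannot be told apart, and read pairs matching several places were not counted. The submitters' processing notes also name edgeR 3.24.3. Totals were 11351078 to 24349263 counts per library at day 0 and 15683839 to 24198110 at day 6.

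From these counts, edgeR 4.0.16 (R 4.3.3, limma 3.58.1) was fitted to all 36 libraries with genotype and day combined as 1 factor and clone as covariate, after filterByExpr (16723 genes of 55536) and TMM scaling. Day 6 against day 0, averaged over genotypes, was tested with the quasi-likelihood F test in its legacy form and, for changes beyond 2-fold, with glmTreat. The same quasi-likelihood test was used for genotype by day and, with a coefficient for each clone, genotype and day, for clone by day. Calls were made at a Benjamini-Hochberg adjusted p under 0.05 over all genes tested. CPM are TMM-scaled. Levels between genes were compared per kilobase of exon. A gene at 0 counts was set to a floor of 3 counts over the group, and ratios with 1 to 3 counts have exact 95% intervals. Where symbols were repeated, the lowest gene identifier was used.

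Members and lists were chosen with earlier results of these data known. The 46 lists and 16 pairs of related genes were written by hand, and 10 further lists were added after values had been seen. Named genes were the study's qPCR and immunoblot markers, in each list the 2 largest called changes each way among members averaging 3 or more in log2 CPM and the member of highest level on each day, the 10 largest called changes each way over all genes and the 5 largest clone by day differences among genes averaging 5 or more, every member of the pairs, and others that a small count needed. Some genes that this rule names are not reported here. Other genes named for a role in a list were chosen after their values were seen. Promoters, 250 bases before to 50 after the start, came from RefSeq (GRCm38.p6), where 908 of 1191 list members matched by symbol, and 8 motifs were searched on both strands of 32851 promoters. Alternatives were DESeq2 1.42.0 and its size factors, library size alone, other filters, the version 4 test, single clones and genotypes, days 0 and 6 alone, a replicate block, summed genotypes, fewer genes and each library left out. The fits were tested on simulated counts. Tables and plots were made with python 3.11.15, pandas 2.3.3, numpy 2.4.6, scipy 1.17.1 and matplotlib 3.10.9.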

Additional observations from a re-analysis of the deposited data

Results flagged for a closer look

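Every result here is a change from day 0 to day 6 that differed between the clones by the test of the difference itself (edgeR quasi-likelihood test with Benjamini-Hochberg adjustment), and each value is the log2 fold change of clone 66 minus that of clone 48. Clone and library pool cannot be told apart, and the part of either in these differences was not tested. The difference passed for 644 of 16723 genes, and 123 of these 644 had changes of opposite sign in the clones' own fits.

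Of the adipocyte genes and factors, *Hsd11b1* (3.03), *Cidec* (2.90), *Steap4* (2.88), *Adipoq* (2.52), *Trarg1* (2.01) and *Cebpa* (1.05) had the greater log2 fold change in clone 66. This need not mean a higher day 6 level. *Adipoq* went from 0.0431 to 0.712 CPM at day 0 to 1294 to 2188 CPM at day 6 in clone 66. In clone 48 it went from 1.58 to 5.38 CPM to 2088 to 3447 CPM. *Cebpa* at day 6 lay at 399 to 487 CPM in clone 66 and 490 to 571 CPM in clone 48, whereas *Hsd11b1* ended higher in clone 66. For *Steap4*, clone 66 went from 3 counts at day 0 to 10776 at day 6, a ratio of 3488 (95% counting interval 1193 to 16917). The droplet gene *Plin2* (-0.92), the phosphatidate phosphatase gene *Lpin1* (-0.95) and *Cavin2* (-0.70), which helps to form caveolae, had the lower value in clone 66. Of the secreted and matrix genes, *Igf1* (-3.47), *Col8a1* (-2.78), *Thbs1* (-2.27), *Rspo2* (-2.21), *Sfrp2* (-1.85) and *Ogn* (-1.70) had the lower value in clone 66, whereas *Fst* (1.36) had the higher one. Among surface proteins and channels, *Itga6* (2.67), *Nt5e* (1.5), *Kcnk3* (1.02), *Vcam1* (0.44) and *Tgfbr1* (0.44) had the higher value in clone 66. *Pdk1* (1.90), *Ero1l* (1.29), *Ddit3* (0.97), *Hes1* (0.94) and *Ndrg1* (0.90) also did, and *Eno3* (-1.16) and *Ankrd1* (-1.36) had the lower value. The value for *Ankef1* (-9.47) depends on the prior count, because clone 48 had 0 counts of it at day 0. No test for an outlying value was run within groups, which hold 3 or 12 libraries.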

How the results depend on the processing

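The counts of genes called at day 6 against day 0 stayed within 1.5 times of those reported under each alternative run. They were 5662 higher and 5733 lower with DESeq2 size factors, 4155 and 7758 with library size alone, 7014 and 7053 without a filter, 4906 and 5485 with a filter of 1 CPM in 6 libraries, 5571 and 5778 without the day 2 libraries, 5621 and 5747 without mitochondrial chromosome and ribosomal RNA genes, 5521 and 5940 with the version 4 test of edgeR and 5701 and 5777 with DESeq2. Clone 48 alone gave 4609 and 4533, clone 66 alone 4793 and 4794, WT alone 4062 and 4360 and SA alone 4278 and 4541. Leaving out 1 library at a time gave 11299 to 11472 genes for the day, 520 to 669 for clone by day and 0 for genotype by day. Of the list counts, 4219 stayed within 1.5 times and 149 moved further. The median of the cytosolic ribosomal proteins turned to 0.02 with DESeq2 size factors and also without mitochondrial chromosome and ribosomal RNA genes, and that of the white adipocyte markers turned from 0.14 to -0.05 with library size alone.

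Replicate numbers are shared by the groups. Within a day, WT and SA libraries of the same clone and number deviated together in 18 of 18 pairs (mean r across 9378 genes 0.71), and summing the counts of each such pair gave 4860 higher and 5342 lower. Between day 0 and day 6, same-numbered libraries had r above 0.1 in 8 of 12 pairs (mean 0.32, lowest -0.33, and -0.15 between different numbers), so the numbers are not shown to pair the days. With a replicate block the day gave 5830 higher and 6362 lower, and clone by day gave 1369 genes, 754 with the greater value in clone 66 and 615 in clone 48, against 644, 352 and 292. The cause of that rise was not tested.

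Of the values of named genes, 10634 kept their direction and side of the threshold, 189 lost the call, 37 gained it and 39 changed sign. Each change of sign was in a gene that did not pass the test. *Acly* turned to 0.015 without a filter and ranged from -0.066 to 0.024 when 1 library was left out. *Bmp8b* turned to 0.019 in SA alone and 0.13 in clone 66 alone, *Letmd1* to -0.059 with library size alone, and *Ndrg1* to 0.37 in clone 66 alone and 0.014 without a filter (-0.080 to 0.074 with 1 library left out). *Hk1* turned to -0.017 with library size alone, -0.0035 with the replicate block and -0.021 with the block on summed genotypes, and to -0.014 without replicate 3 of WT at day 6 in clone 48 (up to 0.33 without another). *Wwtr1* turned to 0.0052 with DESeq2, 0.0049 with its size factors, 0.037 in clone 66 alone, 0.00063 without day 2, 0.040 without a filter and 0.0022 without mitochondrial chromosome and ribosomal RNA genes (-0.027 to 0.034 with 1 library left out). *Yap1* turned to 0.00074 in SA alone and 0.0011 without replicate 1 of SA at day 6 in clone 48 (as low as -0.21 without another).

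Leaving out 1 library lost the call of 10 genes of 257, with 24 libraries left out in turn. For the day these were *Mrpl52* (lost without any of 16 libraries), *Ccne2*, *Hoxc10* and *Pecam1* (7 each), *Slc27a1* (6) and *Col11a1* (4), and for clone by day *Fst* (15), *Kcnk3* (13), *Cavin2* (11) and *Tgfbr1* (8). A call was gained for *Letmd1* (12), *Clock* (6), *Slc25a4* (2) and *Cebpd* (1). Counts limit what can be said of genes near 0, where fold changes are given as bounds or ratios, and the intervals cover counting error only.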

Other observations

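The gene groups described here were chosen after values of these data had been seen, so their counts support nothing on their own. Genes known to respond to low oxygen were higher in 17 of 19 members and lower in 0 (median log2 fold change 3.58, edgeR). *Pdk1*, a kinase that inhibits pyruvate dehydrogenase, was read at 3.56, 14.9 and 31.6 CPM at day 0 and 436, 722 and 1081 CPM at day 6 (6.04 ± 0.25), *Egln3*, an oxygen-sensing prolyl hydroxylase, at 0.356, 1.31 and 4.04 CPM at day 0 and 39.7, 97.7 and 214 CPM at day 6 (5.91 ± 0.19), and *Ero1l*, an oxidase of the endoplasmic reticulum, at 36.6, 38.2 and 59.3 CPM at day 0 and 1059.9, 1786 and 3099.6 CPM at day 6 (5.37 ± 0.18). None overlapped between days, while *Ndrg1*, another member, did not pass the test (log2 fold change -0.041 ± 0.19, edgeR adjusted p = 0.86). Interferon-stimulated genes were lower in 13 of 18 members and higher in 3 (median -1.91). *Ifit2* was read at 191, 235 and 294 CPM at day 0 and 18.9, 24.6 and 30.4 CPM at day 6 (-3.33 ± 0.10) and *Ifit3* at 17.9, 37.0 and 81.0 CPM at day 0 and 1.72, 2.58 and 3.42 CPM at day 6 (-3.99 ± 0.23), both without overlap. Genes of serine synthesis and the amino acid response were higher in 14 of 16 and lower in 1 (median 0.97), with *Trib3*, a pseudokinase of that response, read at 3.64, 6.52 and 13.6 CPM at day 0 and 59.9, 127 and 269 CPM at day 6 (4.22 ± 0.26).

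Of 26 Hox genes tested, which keep the position of a cell along the body, 7 were higher and 13 lower. Over all genes 32.9% were higher and 35.4% lower. *Hoxa9* had 2 counts over all day 0 libraries and 1544 at day 6, a ratio of 731 (95% counting interval 202 to 6039). Genes of the circadian clock were higher in 13 of 16 and lower in 1 (median 0.79), nuclear receptors higher in 17 and lower in 11 of 32, and antioxidant enzymes higher in 13 and lower in 6 of 22. Among receptors, *Vdr*, the vitamin D receptor gene, was read at 22.3, 39.3 and 63.1 CPM at day 0 and 1.45, 2.55 and 5.26 CPM at day 6 (-3.81 ± 0.21), and *Rxrg*, a relative of *Rxra*, went from 0 counts to 451, at least 142-fold higher. *Nqo1*, a quinone reductase, was read at 198, 248 and 336 CPM at day 0 and 37.2, 55.6 and 119.7 CPM at day 6 (-2.15 ± 0.14). Cathepsins and lysosomal membrane proteins were higher in 6 and lower in 8 of 19, and imprinted genes in 3 and 4 of 10, close to the shares of all genes. Cadherins, connexins and junction proteins were higher in 1 and lower in 7 of 9. Of these, *Cdh2*, N-cadherin, was read at 61.8, 101 and 147 CPM at day 0 and 24, 33.2 and 47.8 CPM at day 6 (-1.62 ± 0.09).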
